A study of Homo sapiens with 15 samples.

Results

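Of the 37787 genes in the count table, 10 endogenous forkhead genes were chosen by symbol and followed through every library: FOXO3, FOXO4, FOXP1, FOXC1, FOXK1, FOXK2, FOXJ2, FOXJ3, FOXN2 and FOXN3. None of them was transfected. All 10 passed the filter on low counts, which 13868 genes passed. RNA came from HGrC1, an immortalized and non-luteinized human granulosa cell line whose FOXL2 alleles are normal, in 15 libraries from 5 conditions with 3 replicates each, lettered A to C. The conditions were empty plasmids (Vectors), wild-type FOXL2 plus SMAD3 (FOXL2WT), SMAD3 with the FOXL2 mutant of adult granulosa cell tumours (FOXL2C134W), or either pair together with FOXO1-3A, a FOXO1 mutant that stays nuclear and active (FOXL2WT + FOXO1 and FOXL2C134W + FOXO1). Transfection lasted 4 h and serum-free culture a further 24 h in every condition, and RNA was copied into stranded poly(A) libraries. The SMAD3 plasmid was left out of Vectors and added in the other 4 conditions, so effects of SMAD3 and of FOXL2 cannot be told apart against Vectors. The labels do not say whether replicates were separate cultures, so p-values measure the spread between these libraries only.

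Forkhead proteins bind DNA through a shared winged-helix domain and recognise closely related sites around the core TAAACA. FOXL2 is the forkhead factor that maintains granulosa cell identity, and FOXO1 acts downstream of insulin and PI3K-AKT signalling. The members fall into several branches of the family: FOXO3 and FOXO4 are FOXO1 paralogs excluded from the nucleus after phosphorylation by AKT, FOXK1 and FOXK2 are mainly repressors, FOXP1 is a repressor that dimerises through a leucine zipper, FOXC1 is a developmental factor of mesenchyme, FOXJ2 and FOXJ3 are activators, and FOXN2 and FOXN3 form a smaller branch to which the checkpoint repressor FOXN3 belongs.

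Libraries held 14962245 to 25339094 estimated counts. CPM values are estimated counts relative to the TMM-adjusted library total and carry the SD over 3 libraries, and only levels divided by transcript length (TPM) are compared between genes. FOXL2 was at 8.73 ± 0.704 CPM in Vectors, 561 ± 5.89 CPM in FOXL2WT and 147 ± 27.0 CPM in FOXL2C134W, and SMAD3 at means of 249, 2768 and 843 CPM in the same conditions. With FOXO1 added, SMAD3 was at 969 and 391.7 CPM and FOXL2 at 384 and 152 CPM on FOXL2WT and FOXL2C134W, so that SMAD3 differed by -1.51 and -1.11 and FOXL2 by -0.55 and 0.05 on the log2 scale. The part of these differences in the effects of FOXO1 given below was not tested. The form of FOXL2 and the amounts of FOXL2 and SMAD3 RNA therefore cannot be told apart between the transfected conditions. FOXO1 stood between 11.6 and 13.8 CPM in the 9 libraries without its plasmid, at 117.2 ± 14.5 CPM in FOXL2WT + FOXO1 and at 43.2 ± 4.06 CPM in FOXL2C134W + FOXO1. The last 2 differed by -1.44 on the log2 scale. The amount of FOXO1 RNA thus cannot be told apart from the form of FOXL2 between them, nor where effects of FOXO1 are compared. Of 12 granulosa markers, GATA4 (129 to 154 CPM) and FST (41.1 to 47.0 CPM) were high in all libraries, whereas FSHR had 0 counts in every library, which allows up to 3 counts, and INHA and CYP19A1 never exceeded 4 counts and AMHR2 never 7. The theca markers CYP17A1, LHCGR and INSL3 had at most 3 counts and the leukocyte markers PTPRC and CD3E at most 5. Among the epithelial markers EPCAM ran from 4.78 to 7.72 CPM, whereas CDH1 had 2 to 12 counts and KRT5 at most 4. The leukocyte markers, nearly all CD68, summed to 103 to 117 CPM in Vectors and 88.8 to 97.8 CPM in the other 12 libraries. The endothelial markers summed to 6.28 to 7.15 CPM in Vectors and 3.76 to 6.37 CPM elsewhere. The summed stromal markers, nearly all COL1A1, ran from 1515 to 1583 CPM in Vectors against 1064 to 1346 CPM in the other conditions. Changes in cell composition and in RNA per cell cannot be told apart in these bulk libraries, and the part of these marker differences in the values below was not tested.

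Per unit of transcript length, FOXK2 and FOXP1 led the members and FOXC1 was lowest. Mean TPM over the 15 libraries was 27.9 ± 2.52 for FOXK2, 24.5 ± 2.36 for FOXP1, 19.3 ± 0.887 for FOXJ3, 15.7 ± 1.22 for FOXN2 and 11.9 ± 0.745 for FOXO3 (SD, n = 15). FOXJ2 (11.0 ± 1.18) and FOXN3 (10.8 ± 1.02) followed, then FOXK1 (4.04 ± 0.754), FOXO4 (2.86 ± 0.930) and FOXC1 (2.03 ± 0.312). FOXJ2 and FOXN3 were not separated, with FOXJ2 the higher in 10 of 15 libraries. Each of the steps from FOXP1 to FOXJ3, FOXJ3 to FOXN2, FOXN2 to FOXO3 and FOXN3 to FOXK1 held in 15 of 15 libraries. The step from FOXO3 to FOXJ2 held in 13 libraries. The steps from FOXK2 to FOXP1, from FOXK1 to FOXO4 and from FOXO4 to FOXC1 held in 12 libraries, and in all 15 when counts were divided by each gene's mean effective length instead.

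The summed TPM of the 10 members was 129 ± 8.11 in Vectors, 126 ± 3.32 in FOXL2WT, 137 ± 2.52 in FOXL2C134W, 128 ± 5.86 in FOXL2WT + FOXO1 and 129 ± 4.42 in FOXL2C134W + FOXO1. FOXL2 itself was at 3.83 ± 0.264 TPM in Vectors, so that the members together were 33.8 times as abundant. In FOXL2WT it was at 243 ± 2.77 TPM, above the sum of the members by a ratio of 1.93. In FOXL2C134W it was at 65.6 ± 11.2 TPM, and the members together exceeded it by a ratio of 2.14. These ratios divide by the length of the cell's own FOXL2 transcript, which plasmid RNA need not share, and they say nothing of protein.

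**Figure D1:**
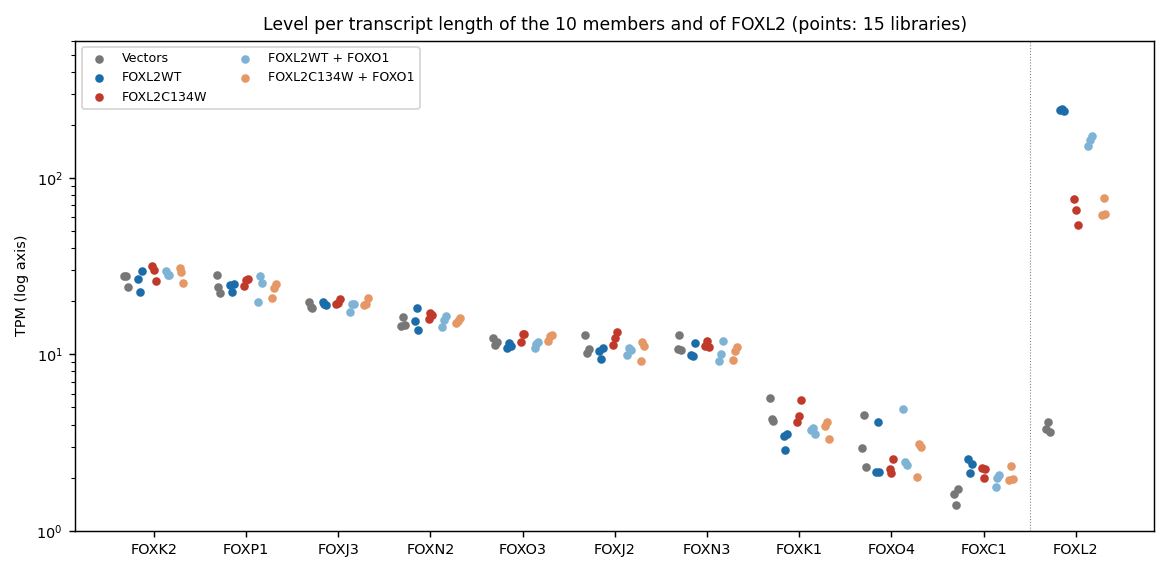
TPM (log axis) of the 10 members and of FOXL2, with 1 point per library coloured by condition. Members run from FOXK2 at a mean of 27.9 TPM to FOXC1 at 2.03 TPM, with FOXJ2 and FOXN3 changing places between conditions, while FOXL2 runs from 3.83 TPM in Vectors to 243 TPM in FOXL2WT.

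The members varied little from library to library. The SD of log2-CPM over the 15 libraries had a median of 0.08 in the members and 0.12 over all tested genes, and ranged from 0.04 in FOXJ3 to 0.25 in FOXK1 and 0.23 in FOXC1. These groups were not matched for level, so the lower median is not shown to be a trait of forkhead genes. All members exceeded a mean of 1 CPM, which 12477 of the 13868 tested genes reached. The test of any difference among the 5 conditions (edgeR quasi-likelihood, Benjamini-Hochberg adjusted p below 0.05) called 1 of the 10 members, FOXC1 (adjusted p = 0.015), against 16.4% of all tested genes. FOXK1 stood just outside the threshold (adjusted p = 0.051 in the same edgeR test). Without replicate A of Vectors FOXK1 was called (adjusted p = 0.0090) and FOXC1 was not (0.056), and without replicate B of Vectors the same exchange occurred (FOXK1 0.044, FOXC1 0.074). The count rose to 3 with a filter of at least 1 count in any library and without replicate A of FOXL2C134W, and to 2 without replicate B of FOXL2C134W + FOXO1. Over all genes these fits called 3515 of 22745, 2821 of 14032 and 2390 of 14035.

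In the comparisons between conditions, members called were few, and every one that passed the test was higher in the first condition named. FOXL2WT against Vectors called 1 member (FOXC1), with a background of 6.07% of tested genes. FOXL2C134W against Vectors called 2 (FOXC1 and FOXK2), with a background of 14.7%, and FOXL2C134W against FOXL2WT called 1 (FOXK1), with a background of 11.2%. With so few members these counts are near what the backgrounds give for 10 genes.

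The conditions with FOXO1 gave still fewer calls. FOXL2C134W + FOXO1 against Vectors called 1 member (FOXC1; background 9.33%) and FOXL2WT + FOXO1 against Vectors called 0 by edgeR and by DESeq2 (background 3.78%), with 1 at an unadjusted p below 0.05. Adding FOXO1 to FOXL2WT called 0 members by either tool (background 0.0505%), and 1 at an unadjusted p below 0.05. Adding it to FOXL2C134W called 0 by either tool (background 0.714%), and 2 at an unadjusted p below 0.05. FOXL2C134W + FOXO1 against FOXL2WT + FOXO1 called 0 (background 0.144%) and had 0 at an unadjusted p below 0.05. The interaction, the effect of FOXO1 in FOXL2C134W minus its effect in FOXL2WT, called 0 members by either tool (background 1.38%). It had 2 at an unadjusted p below 0.05, FOXK1 and FOXJ2. Of all 13868 tested genes, 2400 had such an unadjusted edgeR p in FOXL2WT + FOXO1 against Vectors and 1878 between the FOXO1 conditions. On adding FOXO1 to FOXL2WT and to FOXL2C134W 1266 and 1557 did, and in the interaction 1736.

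The size of the changes was also modest. The median absolute log2 fold change of the members was 0.06 in FOXL2WT against Vectors and 0.07 in FOXL2C134W against Vectors, where all tested genes gave 0.10 and 0.11. It was 0.12 in FOXL2C134W against FOXL2WT, where all tested genes gave 0.11. The addition of FOXO1 gave a median of 0.04 in either background, beside 0.07 over all tested genes. Here too the members and all tested genes were not matched for level. These comparisons share libraries (Vectors enters 4 of the 8, and each FOXL2 condition 3), so the same library can move several of them.

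**Figure D2:**
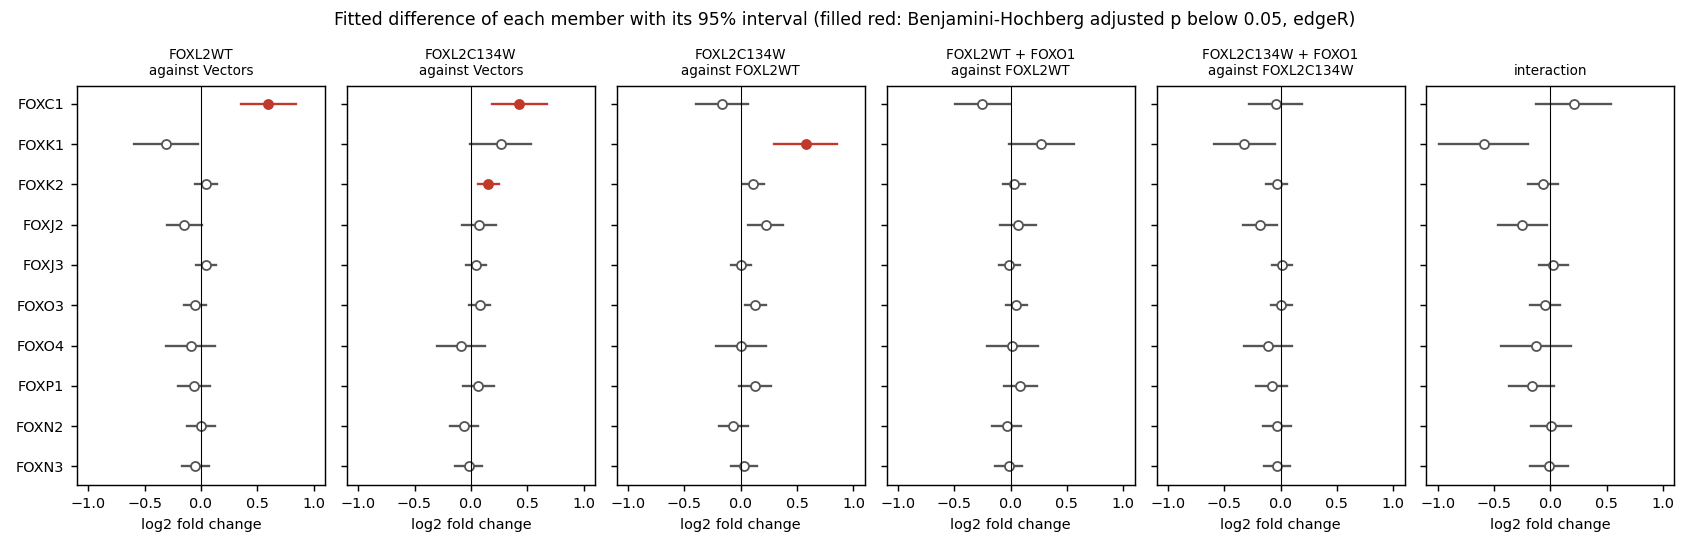
Log2 fold change of each member with its 95% interval in 5 comparisons and in the interaction, on a common axis. Filled red points passed the edgeR test at a Benjamini-Hochberg adjusted p below 0.05; 4 do in these panels, FOXC1 in 2 of them, FOXK2 in 1 and FOXK1 in 1.

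FOXC1, a transcription factor needed for development of the eye, skeleton and vasculature, had its lowest levels in Vectors. The gene lies at chr6:1609915-1613897 (GRCh38, plus strand) and has a single annotated transcript, so that no reads are shared between isoforms. Its levels in replicates A, B and C were 5.06, 4.55 and 5.52 CPM in Vectors and 8.31, 6.85 and 7.74 CPM in FOXL2WT. They were 7.28, 6.14 and 7.05 CPM in FOXL2C134W, 6.19, 6.36 and 6.74 CPM in FOXL2WT + FOXO1, and 6.23, 7.45 and 6.15 CPM in FOXL2C134W + FOXO1. All 3 Vectors libraries lay below all 12 others, while the 4 transfected conditions overlapped their neighbours when ordered by mean. In single comparisons with Vectors, 22.7% to 31.8% of all tested genes had no overlap. The share without overlap in all 4 was not counted. The stromal and leukocyte marker sums, nearly all COL1A1 and CD68, split the libraries in the same way but in the opposite direction, with Vectors above all others. The stromal markers PDGFRA and DCN did not, at 1.09 to 1.44 and 0.16 to 0.20 CPM in Vectors. Over all libraries they ran from 0.65 to 1.61 and from 0.04 to 0.34 CPM.

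FOXC1 rose 1.51-fold in FOXL2WT over Vectors (log2 fold change 0.60, 95% interval 0.35 to 0.84, edgeR adjusted p = 0.0043). This call held in all 11 alternative settings and without any one of the 6 libraries, over a range of 0.53 to 0.67. FOXC1 rose 1.35-fold in FOXL2C134W over Vectors (0.43, interval 0.19 to 0.67, edgeR adjusted p = 0.015). This second call was lost in DESeq2 with transcript length offsets (adjusted p = 0.062), without replicate B of Vectors (0.079), and without replicates A (0.053) or C (0.051) of FOXL2C134W. FOXC1 rose 1.31-fold in FOXL2C134W + FOXO1 over Vectors (0.39, interval 0.14 to 0.63, edgeR adjusted p = 0.041).

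This last call was the least stable, and was lost in 5 of 11 alternative settings, among them DESeq2 (adjusted p = 0.076), and without any one of 4 libraries, namely replicates A and B of Vectors and of FOXL2C134W + FOXO1, with adjusted p up to 0.17. In FOXL2WT + FOXO1 the difference from Vectors was 0.35 (interval 0.10 to 0.60, edgeR adjusted p = 0.12) and was called under no alternative. Whether the rise differed between the FOXL2 forms was tested directly: FOXL2C134W against FOXL2WT gave -0.17 (interval -0.40 to 0.07, edgeR adjusted p = 0.38). Adding FOXO1 to FOXL2WT gave -0.25 (interval -0.49 to -0.01, edgeR adjusted p = 0.53), with the 3 libraries of each condition not overlapping, as in 14.5% of all tested genes. FOXC1 rests on few reads, 92 to 184 counts per library.

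**Figure D3:**
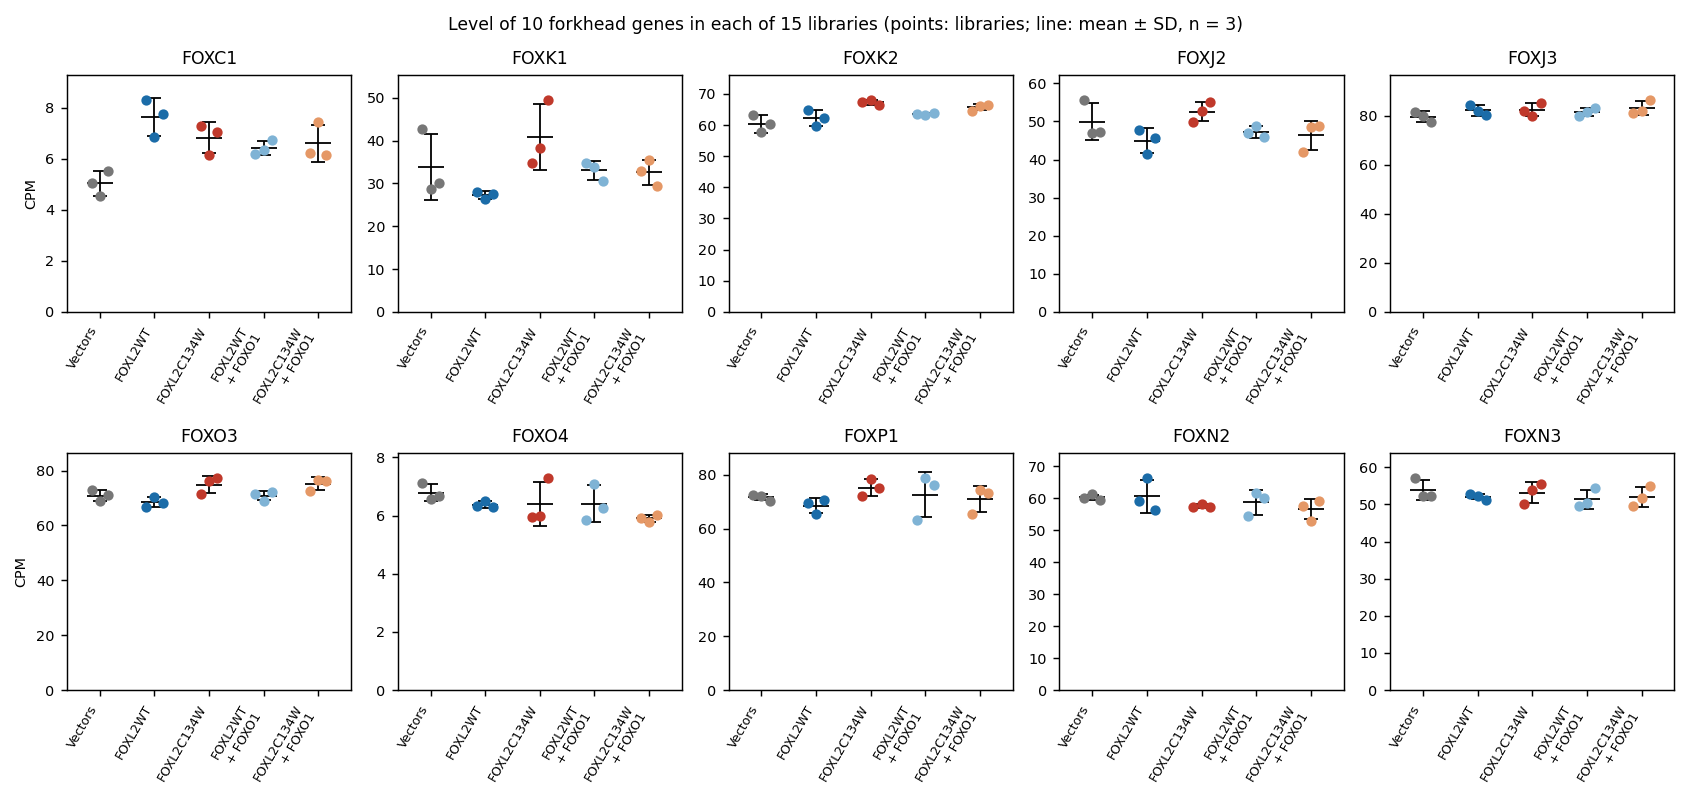
CPM of each member in the 15 libraries, with 1 panel per gene, points for libraries and a line with bars for the mean ± SD of 3 libraries. The 3 FOXC1 points of Vectors (4.55 to 5.52 CPM) and the FOXK1 points of FOXL2WT (26.2 to 27.9 CPM) lie under all others. How many tested genes separate 1 condition from all others was not counted. FOXJ2 runs from 41.5 to 55.6 CPM, and FOXJ3 is the flattest, from 77.4 to 86.4 CPM.

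FOXK1 and FOXK2 are paralogs that repress autophagy genes in fed cells and recruit SIN3A. FOXK1 lies at chr7:4682295-4771442 (plus strand) and FOXK2 at chr17:82519713-82644662 (plus strand) of GRCh38. FOXK1 levels in replicates A, B and C were 42.7, 28.6 and 30.1 CPM in Vectors, 27.9, 26.2 and 27.6 CPM in FOXL2WT and 34.7, 38.3 and 49.5 CPM in FOXL2C134W. They were 34.7, 33.9 and 30.5 CPM in FOXL2WT + FOXO1 and 32.8, 35.4 and 29.5 CPM in FOXL2C134W + FOXO1. FOXL2WT held the 3 lowest libraries, FOXL2C134W replicate C and Vectors replicate A were the highest, and Vectors spanned much of the whole range. Of all tested genes, FOXL2WT did not overlap Vectors in 31.1%, FOXL2C134W in 30.4% and FOXL2WT + FOXO1 in 14.5%.

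FOXK1 was 1.49-fold higher in FOXL2C134W than in FOXL2WT (log2 fold change 0.58, interval 0.30 to 0.86, edgeR adjusted p = 0.0089). Without FOXL2C134W replicate C the difference was 0.42 (adjusted p = 0.060) and no longer called. With an offset for gene length it was 0.34 (adjusted p = 0.080), and the FOXK1 transcript, at a mean effective length of 9657 bases, is longer than 99.4% of those tested. Against Vectors the values were -0.31 in FOXL2WT (interval -0.60 to -0.03, edgeR adjusted p = 0.20) and 0.27 in FOXL2C134W (interval -0.0044 to 0.54, edgeR adjusted p = 0.19), neither of them called. Without replicate A of Vectors the latter was 0.48 and called (adjusted p = 0.012), and with a filter of at least 1 count in any library both were called (adjusted p = 0.0012 and 0.0028).

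For FOXK1 the effects of FOXO1 had opposite signs with the 2 FOXL2 forms, and neither passed the test. The difference was 0.27 on adding FOXO1 to FOXL2WT (interval -0.02 to 0.56, edgeR adjusted p = 0.58) and -0.32 on adding it to FOXL2C134W (interval -0.59 to -0.05, edgeR adjusted p = 0.33). The test of the contrast between these effects, the interaction, gave -0.59 (interval -0.99 to -0.20, edgeR adjusted p = 0.15). It was called without FOXL2C134W replicate A (-0.70, adjusted p = 0.040) and with a filter of at least 1 count in any library (adjusted p = 2.7e-06). With FOXO1 present the 2 FOXL2 forms gave FOXK1 levels of 33.0 ± 2.18 and 32.6 ± 2.98 CPM.

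FOXK2 varied far less. Its levels in replicates A, B and C were 63.4, 57.7 and 60.2 CPM in Vectors, 64.7, 59.7 and 62.3 CPM in FOXL2WT and 67.4, 68.1 and 66.5 CPM in FOXL2C134W. With FOXO1 they were 63.7, 63.1 and 63.8 CPM on FOXL2WT and 64.5, 66.3 and 66.4 CPM on FOXL2C134W. The 3 FOXL2C134W libraries were the highest of all 15, but the lowest of them stood at 66.5 CPM beside 66.4 CPM in FOXL2C134W + FOXO1. Of all tested genes, 14.0% had no overlap between these 2 conditions and 31.8% none between FOXL2C134W and Vectors.

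The rise of FOXK2 in FOXL2C134W over Vectors was 1.11-fold (log2 fold change 0.16, interval 0.06 to 0.25, edgeR adjusted p = 0.022). It was lost in 3 of 11 alternative settings and without replicate B (adjusted p = 0.13) or C (0.064) of Vectors or replicate B of FOXL2C134W (0.070). FOXL2C134W against FOXL2WT gave 0.11 (interval 0.02 to 0.21, edgeR adjusted p = 0.12).

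**Figure D4:**
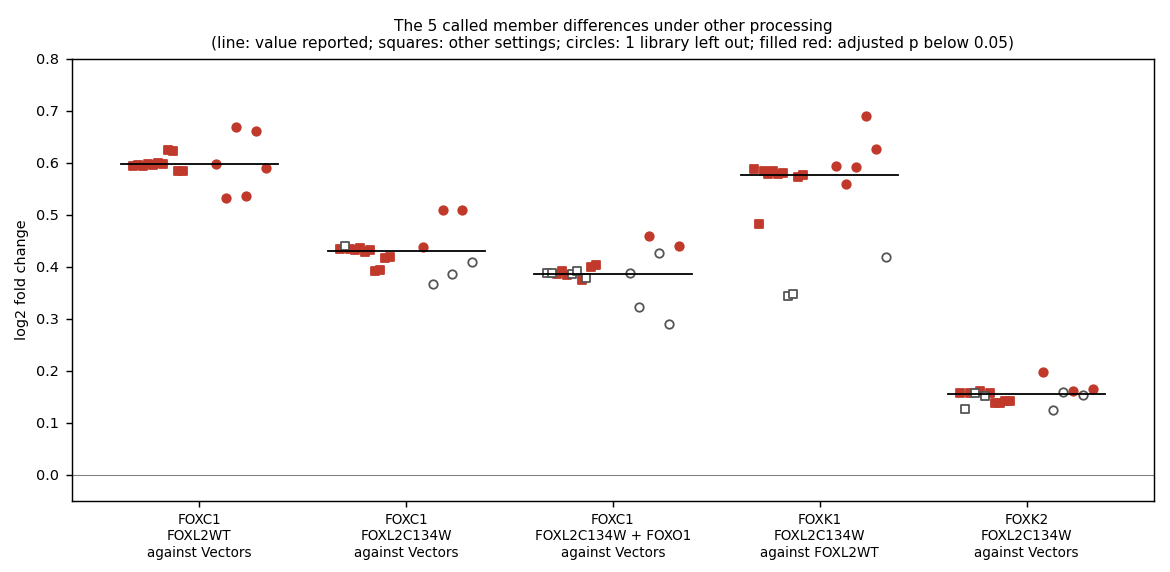
Log2 fold change of the 5 called member differences, with a line for the value reported, squares for 11 other processing settings and circles for fits without 1 library, filled red where the adjusted p was below 0.05. FOXC1 in FOXL2WT against Vectors is filled throughout, and FOXK1 drops from 0.58 to 0.34 with an offset for gene length.

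The shares of the transcripts assigned to FOXK1 and FOXK2 also differed between conditions, and are given without a test. FOXK1-201, the full-length transcript of 11194 bases, held 75.3% of FOXK1 TPM in Vectors and 87.1% to 93.3% in the transfected conditions. The short FOXK1-202, of 758 bases, held 18.0% to 30.5% in the 3 Vectors libraries and 0 to 17.9% in the 12 others. The groups thus nearly met, and how often transcripts of other genes separate in this way was not counted. DESeq2 with transcript length offsets gave FOXK1 as -0.49 in FOXL2WT against Vectors (adjusted p = 0.026) and -0.01 in FOXL2C134W against Vectors. For FOXK2, the short FOXK2-203 (786 bases) held 25.8% to 31.6% in Vectors and FOXK2-206 (805 bases) 0, whereas in FOXL2C134W their means were 7.2% and 18.4%. In single libraries of that condition FOXK2-203 ran from 0 to 21.6% and FOXK2-206 from 0 to 29.1%, which leaves the division between these 2 transcripts uncertain. FOXK2-201 (5243 bases) stayed between 34.7% and 40.3% of FOXK2 TPM in the condition means.

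**Figure D5:**
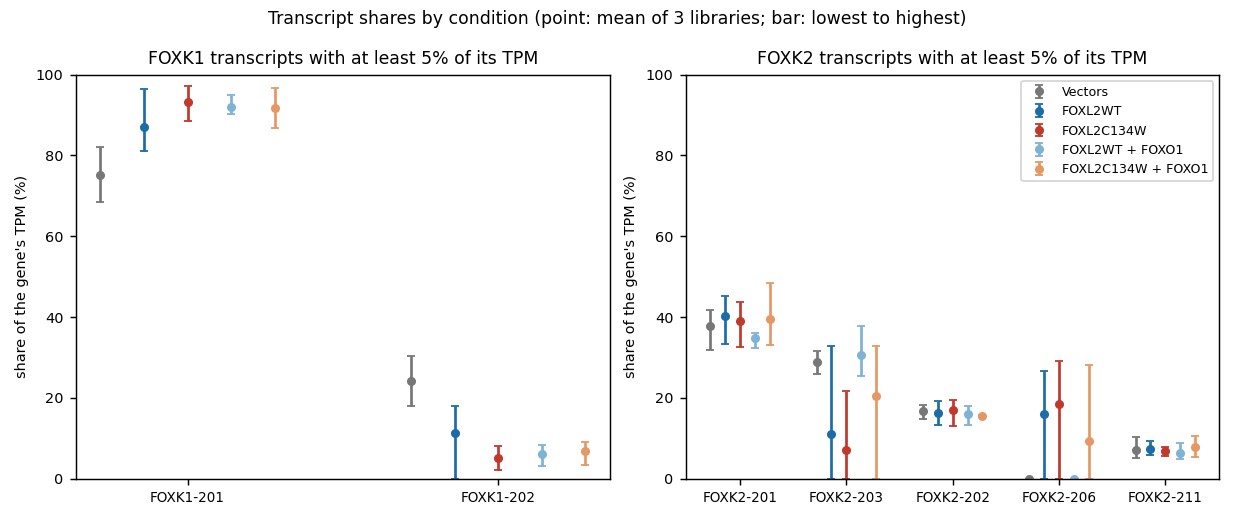
Share of the gene's TPM (%) for transcripts of FOXK1 and FOXK2 with at least 5% of it, with points for the mean of 3 libraries and bars from the lowest to the highest library. FOXK1-202 stands at 24.2% in Vectors and at 5.1% to 11.4% in the other conditions, and the bars of FOXK2-203 and FOXK2-206 reach from 0 to above 20% within a condition.

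FOXJ2 and FOXJ3, activators with broad expression, differed in how steady they were. FOXJ2 lies at chr12:8032716-8055517 (plus strand) and FOXJ3 at chr1:42176539-42335877 (minus strand) of GRCh38. FOXJ2 was at 55.6, 46.9 and 47.3 CPM in replicates A, B and C of Vectors, 47.8, 41.5 and 45.6 CPM in FOXL2WT and 49.98, 52.6 and 55.1 CPM in FOXL2C134W. With FOXO1 it was at 47.0, 48.9 and 45.8 CPM on FOXL2WT and 41.9, 48.4 and 48.7 CPM on FOXL2C134W. As for FOXK1, Vectors replicate A and FOXL2C134W replicate C were the 2 highest libraries.

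FOXJ2 in FOXL2C134W against FOXL2WT gave 0.22 (interval 0.07 to 0.38, edgeR adjusted p = 0.063) with no overlap between the 6 libraries, as in 30.4% of all tested genes. It was called in 5 of 11 alternative settings, DESeq2 among them, and without FOXL2C134W replicate A (adjusted p = 0.034), whereas an offset for gene length brought it to 0.10 (adjusted p = 0.35). Adding FOXO1 to FOXL2C134W gave -0.18 (interval -0.33 to -0.03, edgeR adjusted p = 0.33) and the interaction -0.25 (interval -0.47 to -0.03, edgeR adjusted p = 0.32). FOXJ3 was the steadiest member, at 77.4 to 86.4 CPM over the 15 libraries. Its largest absolute log2 fold change over the 8 comparisons was 0.06, and the 95% intervals of those comparisons lay within -0.10 to 0.15.

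FOXO3, which restrains the activation of primordial follicles in the mouse ovary, and FOXO4 are the FOXO1 paralogs among the members. FOXO3 lies at chr6:108559835-108684774 and FOXO4 at chrX:71095851-71103532, both on the plus strand of GRCh38. FOXO3 was at 72.7, 68.9 and 71.0 CPM in replicates A, B and C of Vectors, 66.9, 70.3 and 68.0 CPM in FOXL2WT and 71.4, 76.1 and 77.2 CPM in FOXL2C134W. With FOXO1 it was at 71.4, 69.0 and 72.2 CPM on FOXL2WT and 72.4, 76.7 and 76.3 CPM on FOXL2C134W. The 6 libraries with FOXL2C134W, with or without FOXO1, were all above the 3 with FOXL2WT alone. Between FOXL2C134W and FOXL2WT, 30.4% of all tested genes had no overlap.

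The difference of FOXO3 between FOXL2C134W and FOXL2WT was 0.13 (interval 0.04 to 0.22, edgeR adjusted p = 0.069), not called. It was called with an offset for GC content and without FOXL2C134W replicate A, and its sign turned to -0.04 with an offset for gene length. FOXO1-3A, which raised FOXO1 RNA by log2 fold changes of 3.26 on FOXL2WT and 1.85 on FOXL2C134W, left FOXO3 at 0.05 (interval -0.04 to 0.15) and 0.01 (interval -0.09 to 0.10). Its near-identical copy FOXO3B drew 7.23% to 12.3% of the counts of the pair, a division that is uncertain, and FOXO3B was called in no comparison. FOXO4 stood at 5.79 to 7.28 CPM on only 87 to 167 counts, with intervals within -0.42 to 0.24 over the 8 comparisons and a lowest edgeR adjusted p of 0.25. The short FOXO4-203 (306 bases) and FOXO4-204 (657 bases) held 11.0% and 10.2% of its TPM, and FOXO4 TPM ranged from 2.01 to 4.88 over the libraries.

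FOXP1, FOXN2 and FOXN3 gave no call in any comparison. FOXP1, a repressor that shapes lymphoid, lung and neural development, lies at chr3:70954693-71583978 (minus strand) and ranged from 63.1 to 78.7 CPM. Both extremes were libraries of FOXL2WT + FOXO1. Its largest absolute difference was 0.13, in FOXL2C134W against FOXL2WT, and its intervals lay within -0.22 to 0.27. FOXN2, at chr2:48314637-48379295 (plus strand), ranged from 53.0 to 66.2 CPM with intervals within -0.22 to 0.13. FOXN3, a repressor first found as a suppressor of checkpoint defects, lies at chr14:89124871-89619149 (minus strand) and ranged from 49.5 to 57.0 CPM with intervals within -0.19 to 0.15.

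The promoters of the 3 called members are shown because forkhead and SMAD proteins were the factors transfected, and the letters let their sites be looked for. RefSeq promoter windows (GRCh38.p14, 250 bases before to 50 after a start) were found for 9 members in 19 windows. In lower case, 5′ to 3′ on the gene's strand, the 250 bases before the start are given for FOXC1 (chr6:1609665-1609914, plus strand), FOXK1 (chr7:4682045-4682294, plus strand) and FOXK2 (chr17:82519482-82519731, plus strand), and for contrast for an internal start of FOXP1 (chr3:71245078-71245327, minus strand). Capitals mark exact matches, on either strand, to GTAAACA (forkhead), CAGACA (SMAD box) and GGGCGG (GC box).
FOXC1: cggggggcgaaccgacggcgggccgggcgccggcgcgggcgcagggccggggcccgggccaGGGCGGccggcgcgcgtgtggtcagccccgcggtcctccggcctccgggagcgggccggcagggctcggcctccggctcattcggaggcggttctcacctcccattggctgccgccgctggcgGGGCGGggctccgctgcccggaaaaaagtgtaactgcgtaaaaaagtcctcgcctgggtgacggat
FOXK1: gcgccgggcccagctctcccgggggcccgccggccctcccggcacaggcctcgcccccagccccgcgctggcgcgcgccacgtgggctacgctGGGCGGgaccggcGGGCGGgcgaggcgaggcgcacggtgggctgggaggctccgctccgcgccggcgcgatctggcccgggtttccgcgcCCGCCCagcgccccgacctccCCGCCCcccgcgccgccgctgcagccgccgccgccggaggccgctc
FOXK2: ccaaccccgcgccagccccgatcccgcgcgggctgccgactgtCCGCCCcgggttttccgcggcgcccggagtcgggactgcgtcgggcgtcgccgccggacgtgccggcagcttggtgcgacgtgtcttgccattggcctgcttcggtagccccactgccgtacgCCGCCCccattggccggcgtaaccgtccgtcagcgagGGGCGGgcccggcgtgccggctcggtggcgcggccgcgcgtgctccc
FOXP1: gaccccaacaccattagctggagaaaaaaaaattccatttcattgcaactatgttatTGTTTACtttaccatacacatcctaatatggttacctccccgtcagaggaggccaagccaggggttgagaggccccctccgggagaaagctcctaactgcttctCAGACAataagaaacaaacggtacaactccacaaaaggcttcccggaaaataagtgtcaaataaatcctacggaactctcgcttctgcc

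All capitals in FOXC1, FOXK1 and FOXK2 are GC boxes, 2, 4 and 3 of them. These 3 stretches are rich in G and C, at 76.8%, 85.6% and 77.2%, where the median over all gene starts was 58%. The FOXP1 stretch, at 45.2%, holds a forkhead match on the reverse strand 193 bases before the start, and a SMAD box. Over all 35116 windows, GTAAACA was in 3.42%, CAGACA in 16.9% and GGGCGG in 45.0%. Of the 19 member windows, 2 held GTAAACA (in FOXO4 and FOXP1), 5 held CAGACA (in FOXO3 and FOXP1) and 12 held GGGCGG. These matches describe the letters in these windows and not sites of binding.

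Profiles of the members over the libraries were compared with each other without a test. FOXK1 and FOXJ2 had the closest profiles, with a Pearson r of 0.79 between their log2-CPM over 15 libraries, followed by FOXO3 and FOXK1 (0.64) and FOXO3 and FOXK2 (0.61). FOXK2 and FOXN2 were the most opposed pair, at -0.55. Among 12476 other genes with a mean of at least 1 CPM, those most like FOXC1 were ZNF768 (r = 0.91), SLC27A2 (0.90) and BCL7A (0.89). Those most like FOXK1 were CABIN1 (0.91), PRRC2A (0.89) and RBM33 (0.89), and those most like FOXK2 were KIAA1614 (0.91), NR2F2 (0.91) and STK24 (0.90). These are descriptions across 15 libraries that share conditions and depth, and the like genes were picked as the highest of many.

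The other forkhead genes were described as a list. Of 37 further forkhead genes, 8 were tested and 29 were not, and of the latter 9 had 0 counts in every library and the others at most 13 in any one. Of the 8, 5 were called in the test of any difference, beside 16.4% of all tested genes, and in FOXL2C134W against Vectors 4 were called, all higher, beside the background of 14.7%. The list had a median log2 fold change of 0.28 there, against 0.00 over all tested genes. FOXL2C134W + FOXO1 against Vectors called 3 of the 8 (background 9.33%). FOXL2WT against Vectors (6.07%), FOXL2C134W against FOXL2WT (11.2%) and the interaction (1.38%) called 2 each, and the remaining comparisons 0. FOXD1, a factor of kidney stroma, was the most abundant at a mean of 62.7 TPM. In FOXL2C134W over Vectors it rose by 0.28 (edgeR adjusted p = 0.0042), FOXC2, the close paralog of FOXC1, by 0.40 (edgeR adjusted p = 0.0030), and FOXE1, a thyroid factor, by 0.40 (edgeR adjusted p = 0.022, lost without any 1 of 4 libraries). FOXE1 also rose by 0.46 in FOXL2WT over Vectors (edgeR adjusted p = 0.026), and this FOXE1 call was lost without any 1 of 5 libraries.

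FOXP4, a paralog and dimerisation partner of FOXP1, was higher by 0.50 in FOXL2C134W than in FOXL2WT (edgeR adjusted p = 3.9e-04), from 25.5 ± 2.14 to 36.2 ± 0.92 CPM. FOXM1, which drives genes of mitosis, fell by 0.23 on the log2 scale in FOXL2WT against Vectors (edgeR adjusted p = 0.0063), a call lost without replicate A of Vectors (adjusted p = 0.057), and was higher by 0.21 in FOXL2C134W than in FOXL2WT (edgeR adjusted p = 0.0070).

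The regulators of FOXO proteins were measured through 32 genes, all tested, of which 8 were called in the test of any difference, beside 16.4% of all tested genes. In FOXL2C134W against Vectors 8 were called, 7 of them higher, and in FOXL2C134W against FOXL2WT 6 were called, 5 of them higher. The list medians were 0.03 and -0.01, beside 0.00 and -0.01 over all tested genes. These shares stand beside backgrounds of 14.7% and 11.2% of all tested genes. FOXL2C134W + FOXO1 against Vectors and the interaction called 2 each (backgrounds 9.33% and 1.38%). FOXL2WT and FOXL2WT + FOXO1 against Vectors called 1 each (6.07% and 3.78%), as did adding FOXO1 to FOXL2C134W (0.714%). The remaining comparisons called 0.

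Named by smallest adjusted p, CREBBP and EP300, acetyltransferases that act on FOXO proteins, were higher by 0.82 and 0.51 in FOXL2C134W than in FOXL2WT (edgeR adjusted p = 6.0e-05 and 2.3e-04). The EP300 difference was 0.29 and not called in DESeq2 with transcript length offsets (adjusted p = 0.48). IRS2, an adaptor of the insulin receptor, was higher by 0.54 in FOXL2C134W than in Vectors (edgeR adjusted p = 9.5e-05). SGK1, a kinase that phosphorylates FOXO3, was higher by 0.33 in FOXL2WT than in Vectors (edgeR adjusted p = 2.3e-04).

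Partners and corepressors of the FOXK, FOXP, FOXJ and FOXN proteins were measured through 17 genes, all tested, and 3 were called in the test of any difference, beside 16.4% of all tested genes. In FOXL2C134W against FOXL2WT 6 were called, all higher, with a list median of 0.15 against -0.01 over all tested genes. In FOXL2C134W against Vectors 5 were called, all higher (list median 0.06 against 0.00). Adding FOXO1 to FOXL2C134W and the interaction called 1 each (backgrounds 0.714% and 1.38%), and the other comparisons 0.

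GATAD2A, a subunit of the NuRD complex, had the smallest adjusted p and rose from 59.6 ± 3.64 CPM in FOXL2WT to 80.8 ± 1 CPM in FOXL2C134W (log2 fold change 0.44, edgeR adjusted p = 3.3e-05). MTA1, of the same complex, was higher by 0.32 in FOXL2C134W than in Vectors (edgeR adjusted p = 0.0083, but 0.33 in DESeq2 with transcript length offsets). GATAD2B, the paralog of GATAD2A, was higher by 0.37 in FOXL2C134W than in FOXL2WT (edgeR adjusted p = 0.014), a call lost without any 1 of 4 libraries and in DESeq2 with transcript length offsets (adjusted p = 0.49). The counts of these lists stand beside backgrounds of 11.2% and 14.7%, and no test set the lists against other genes.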

How the data were processed

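RNA of 15 HGrC1 libraries was measured, with groups and replicate letters from the labels. The authors estimated transcript abundance from 75-base single-end reads with salmon 1.1.0 on hg38, summed it to genes and deposited whole-number estimated counts of 37787 genes without normalization. The deposited transcript tables also give TPM as salmon scaled it, and effective lengths. The annotation release is not given in the sources used here. Coordinates and GC content are from GENCODE 44 (GRCh38), which held 98.4% of the transcripts by identifier.

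Counts were filtered with filterByExpr, scaled with TMM and fitted together for all libraries with edgeR 4.0.16 (quasi-likelihood test, R 4.3.3), and genes with a Benjamini-Hochberg adjusted p below 0.05 over 13868 genes were called. TPM was summed over a gene's transcripts. Promoters and figures used Python 3.11.15. Fits were tested on simulated data. The members and gene lists were chosen with earlier results of these data known. Named list genes were all called forkhead genes, the 4 regulators and the 3 partners of smallest adjusted p, and like genes the 3 of highest r. Some genes of the lists are not reported here. Intervals cover the spread between libraries and a depth of 14962245 to 25339094 counts. Alternatives were DESeq2 1.42.0, other scaling and filters, length and GC offsets (lowess span 0.3), a replicate block and leaving out each library.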

Additional observations from a re-analysis of the deposited data

Results flagged for a closer look

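No member gave an interaction past the threshold. Among the genes of the 3 accompanying lists that are named, 5 did, each with a difference between the effect of FOXO1 in FOXL2C134W and its effect in FOXL2WT by the edgeR quasi-likelihood test. Over all 13868 tested genes 192 did (1.38%), 173 of them with a negative value. The 5 were named for a call or a small adjusted p in any comparison. The interaction shares libraries with those comparisons, so their number cannot be set against this share. The interaction of the forkhead genes was -0.53 for FOXP4 (adjusted p = 0.018) and -0.29 for FOXM1 (adjusted p = 0.041). FOXM1 lost this call with the replicate block (adjusted p = 0.053), with an offset for GC content (0.079) and without any 1 of 9 libraries, and FOXP4 without any 1 of 4. It was -0.87 for CREBBP (adjusted p = 0.0065) and -0.49 for EP300 (adjusted p = 0.024), and EP300 lost the call without any 1 of 6 libraries. It was -0.45 for GATAD2A (adjusted p = 0.0065), and GATAD2A and CREBBP kept it without any 1 of the 12 libraries. In DESeq2 with transcript length offsets the interaction was not called for CREBBP (-0.96, adjusted p = 0.16) or EP300 (-0.25, adjusted p = 0.85). FOXL2, SMAD3 and FOXO1 RNA had interactions of their own (0.60, 0.41 and -1.41, adjusted p = 0.033, 0.0065 and 4.7e-05), and their part in these values was not tested.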

How the results depend on the processing

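Member counts are out of 10. In the test of any difference, 1 member became 2 with DESeq2 and length offsets, DESeq2 size factors, at least 10 counts in every library or a GC offset, 3 with at least 1 count in any library, and 1 to 3 with a library left out. In the same order, 2268 calls over all 13868 genes became 1612, 2279, 2477 of 12491, 3042, 3515 of 22745, and 1519 to 2821. Leaving out libraries gave 0 to 3 members for FOXL2C134W against Vectors and against FOXL2WT, and 0 to 1 for FOXL2C134W + FOXO1 against Vectors and for the interaction. Over all genes such fits called 1275 to 2126 for FOXL2C134W against Vectors and 772 to 2120 against FOXL2WT. They called 764 to 1122 for FOXL2C134W + FOXO1 against Vectors and 45 to 423 for the interaction. At least 1 count in any library gave 2 for FOXL2WT against Vectors, 2 for FOXL2C134W against FOXL2WT, and 1 for each effect of FOXO1 and for the interaction. That filter raised the calls over all genes in the first comparisons named from 842 to 1345 and from 1560 to 1954. On adding FOXO1 the calls rose from 7 to 260 with FOXL2WT and from 99 to 463 with FOXL2C134W. For the interaction they rose from 192 to 551. DESeq2 with length offsets gave 2 for FOXL2WT against Vectors, and 0 for FOXL2C134W and FOXL2C134W + FOXO1 against Vectors. Over all genes it called 496, 971 and 743 there, where edgeR called 842, 2041 and 1294. Fitting only the conditions compared gave 1 for FOXL2C134W against Vectors, 0 for FOXL2C134W + FOXO1 against Vectors and 2 for FOXL2C134W against FOXL2WT. DESeq2 gave 0 and 2 for these last comparisons, at least 10 counts in every library 2 for the latter, a GC offset 3 and a length offset 0. Over all genes, fitting only the conditions compared called 1883, 1266 and 1478 in the order given. DESeq2 called 1381 and 1714, and the filter, GC offset and length offset called 1648, 2041 and 1487.

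Deviations of same-letter libraries correlated at a median of 0.0036 (range -0.164 to 0.166, with 2 of 30 above 0.1). Those of libraries with other letters correlated at a median of 0.0058 (range -0.122 to 0.123, with 4 of 60 above 0.1). The letters gave no clear sign of pairing, which so few libraries cannot exclude. The replicate block called 0 members for FOXL2C134W + FOXO1 against Vectors (FOXC1 adjusted p = 0.050), also with a length offset. With the block, FOXL2C134W against FOXL2WT gave 0 with a length offset and 2 with a GC offset. Over all genes the block called 1261 for FOXL2C134W + FOXO1 against Vectors, or 1697 with a length offset. For FOXL2C134W against FOXL2WT it called 1492 with a length offset and 2160 with a GC offset. The block alone changed no other member count.

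Of 90 member differences, 44 changed sign under at least 1 alternative, none of them above 0.27 in size. A length offset gave -0.0391 for FOXO3 in FOXL2C134W against FOXL2WT (-0.0388 with the block) and 0.00485 for FOXK1 in FOXL2WT + FOXO1 against Vectors (0.0172 with the block). DESeq2 with length offsets gave -0.0128 for FOXK1 and -0.12 for EP300 in FOXL2C134W against Vectors, and 0.00549 for FOXK1 and -0.0425 for FOXK2 between the FOXO1 conditions, where a GC offset gave 0.0211 for FOXK1, or 0.0202 with the block. Leaving out libraries gave FOXC1 -0.0582 to 0.0929 between the FOXO1 conditions and -0.15 to 0.00218 on adding FOXO1 to FOXL2C134W. It gave FOXK1 -0.0826 to 0.0543 between the FOXO1 conditions, -0.14 to 0.16 in FOXL2WT + FOXO1 and -0.16 to 0.15 in FOXL2C134W + FOXO1, both against Vectors. The causes were not tested. Low counts limit FOXC1 and FOXO4.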
